A study of Mus musculus with 2 samples.

Results

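Classical monocytes were examined in 2 single-cell RNA libraries of CD45-positive cells sorted from mouse lungs that carried HKP1 tumours, a lung cancer line injected through the tail vein. Cells were counted as classical monocytes where at least 1 UMI (unique molecular identifier, a count of 1 captured RNA molecule) was found for both Ly6c2 and Ccr2 and for at least 1 of Vcan, F13a1 and Fn1. None of 7 genes of other cells was to be detected: C1qa, C1qb and Gpnmb of macrophages, Cd3e of T cells, Cd79a of B cells, Ncr1 of natural killer cells and Cxcr2 of neutrophils. The rule found 358 of 11905 cells, 180 of 5702 in the PBS library and 178 of 6203 in the DT library. Measured values therefore chose the cells, and the 12 genes of the rule are given below as a description only.

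Both groups were Scgb1a1cre /iDTR mice, in which Cre made in Scgb1a1-expressing club cells of the airway switches on a receptor for diphtheria toxin. The PBS group was the control, and the DT group received 2 doses of the toxin, 600 ng per 20 g each, on days 8 and 9. The groups shared 5 daily doses of tamoxifen, 2 mg per 20 g, beginning on day 3, anti-PD-1 antibody at 250 µg per mouse on day 6 and lung irradiation at 4 Gy on each of 3 days from day 10, and lungs were taken 24 to 48 h after radiation. The treatment protocol is worded alike for both samples and lists the toxin for each, so the assignment to PBS or DT comes from the titles and the design text. The design names 4 mice per group, no label gives their age or sex, and each group is 1 library in which no cell is tied to an animal. No test between the groups was therefore possible. Intervals are exact 95% intervals that cover counting error only, and say nothing of the spread between mice.

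Classical monocytes leave the bone marrow through CCR2, the receptor for the chemokine CCL2, and enter inflamed or tumour-bearing tissue. There they can take on macrophage or dendritic cell features, and in the blood some lose Ly6C and become nonclassical monocytes that patrol vessel walls. In tumours they are a known source of inflammatory cytokines, of arginase and of matrix and clotting proteins.

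Of all PBS cells 3.16% were classical monocytes (2.72 to 3.64), and of all DT cells 2.87% were (2.47 to 3.32), a DT to PBS ratio of 0.909 (0.735 to 1.12). Among cells with Csf1r, the receptor for macrophage colony-stimulating factor, or chosen by the rule, they made up 12.5% and 12.2% (ratio 0.975, 0.788 to 1.21). Both intervals include 1. Their depth differed, with medians of 7193 UMIs and 2462 genes per cell in PBS and 5854 UMIs and 2141 genes in DT, and 1309761 and 1071489 UMIs in all. When every cell was first thinned to 2000 UMIs, the rule found 107 of 4822 PBS cells (2.22%) and 86 of 4485 DT cells (1.92%). With at least 3 UMIs of Ly6c2 required, the share was 2.54% in PBS (145 cells) and 1.74% in DT (108 cells), a ratio of 0.685 (0.529 to 0.885).

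The edges of the rule were as follows. Exactly 1 UMI of Ly6c2 was seen in 22 PBS and 41 DT classical monocytes, and the median was 6 UMIs in PBS and 3.5 in DT. Just outside the rule were 21 PBS and 16 DT cells left out for 1 UMI of 1 of the 7 excluded genes, and 81 and 71 cells that had none of Vcan, F13a1 and Fn1. A further 109 PBS and 126 DT cells were left out for 2 or more UMIs of the 7 genes. Before that exclusion 310 PBS and 320 DT cells had met the other parts of the rule. Of the genes in the rule, Ly6c2, the monocyte surface antigen, was at 1161 and 803 CPM (counts per 1000000 of the summed UMIs) in PBS and DT, and Ccr2 at 793 and 751 CPM. Vcan, the matrix proteoglycan versican, was at 218 and 219 CPM, F13a1, a coagulation factor subunit, at 438 and 339 CPM, and Fn1, fibronectin, at 1112 and 1392 CPM. Ly6c2 has a near-identical copy, Ly6c1, so how reads were split between them is uncertain, and Ly6c1 was detected in 8 PBS and 2 DT classical monocytes.

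The libraries differed in sex-linked RNA. Cells with UMIs of Y-linked genes (Ddx3y, Eif2s3y, Kdm5d or Uty) and none of Xist were called male, and the reverse female. Of the called classical monocytes 77.1% were male in PBS (74 male, 22 female) and 37.6% in DT (38 male, 63 female), while 83 and 77 cells had neither signal. Treatment, the sex of the animals and any other difference between the 2 libraries cannot be told apart. Values within male-called and within female-called cells are given beside many of the results below. They were followed for 84 genes, and those of the 84 that passed the criterion and turn direction there are listed in the closing section. Other named genes, such as Nfkbid, Ceacam1, Pglyrp1 and Fpr2, were not among the 84, so their absence from that list says nothing. No barcode of a classical monocyte was among the 8 that the libraries shared.

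The name was checked on genes outside the rule. Csf1r was detected in 159 of 180 PBS and 140 of 178 DT cells, and Lyz2, the lysozyme of myeloid cells, in 179 and 178. Plac8, a gene strong in Ly6C-high monocytes, was detected in 99.4% and 97.2% of them, against 58.1% and 53.9% of the other 1257 PBS and 1279 DT cells with Csf1r. Chil3, a chitinase-like protein of these monocytes, was at 3834 and 4353 CPM, against 1919 and 1320 CPM in the other cells. Not every listed gene of the classical state was above the other cells. Cd14 was lower, at 205 against 474 CPM in PBS and 521.7 against 865.5 CPM in DT. Clec4e stood at ratios of 0.613 and 0.692 to the other cells, and Cebpb (1.01 and 0.919) and Tgfbi (1.03 and 1.05) lay near 1. The selected cells were not free of genes of neighbouring types: at least 2 of Ace, Treml4, Adgre4, Spn and Eno3, genes of nonclassical monocytes, were detected in 43 PBS cells (23.9%) and 18 DT cells (10.1%), and in 17 and 3 cells after thinning.

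Measured against the other cells with Csf1r, classical monocytes had more Ly6a2, Ifitm6 and Plac8 RNA and far less S100a9 and C1qc RNA. This is a description, since the rule picked the cells from the same libraries. Of 12221 genes, 312 (2.55%) were at least 1.5-fold higher with an interval without 1 in both libraries, and 856 (7.00%) were lower. Ranked by the smaller of the log2 ratios of the libraries (5 CPM added), the highest was Ly6a2, a Ly6-family gene, at 262 against 18.4 CPM in PBS and 135 against 10.4 CPM in DT. Ifitm6, an interferon-induced membrane protein, was at 501 against 112 CPM in PBS and 396 against 83.9 CPM in DT, and Ifitm3, a restriction factor of the same family, at 5671 against 1771 and 5443 against 1690 CPM. Mgst1, a membrane-bound glutathione transferase, was at 552 against 140 CPM and 477 against 134 CPM. The other highest genes were Plac8, Ifi209, Stxbp6, Arhgef37, Plcb1 and Cd177. The 10 lowest were S100a9, S100a8, Retnlg, G0s2, Mmp9, Hdc, Asprv1 and Cstdc4, with C1qc of macrophages and Sftpc of alveolar type 2 cells. S100a9, a subunit of the alarmin calprotectin, was at 23.7 against 6242 CPM in PBS and 30.8 against 6482 CPM in DT, so the comparison cells carried abundant neutrophil-type RNA. The plot of levels shows these genes in the selected cells and in the others.

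**Figure D1:**
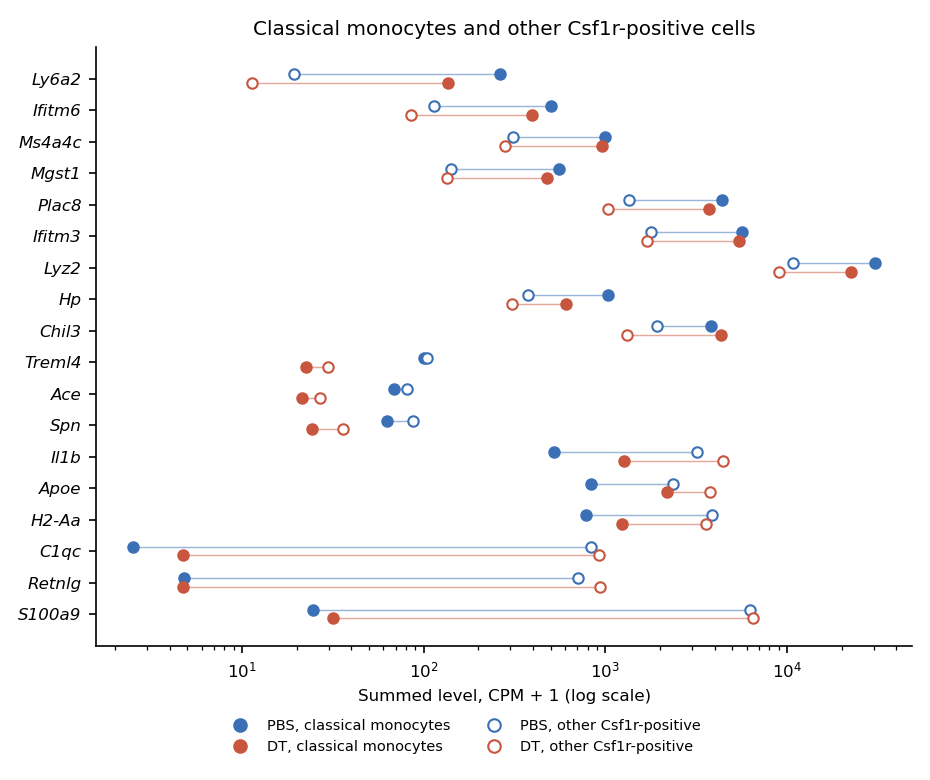
Summed level (CPM + 1, log scale, horizontal axis) of 18 genes (vertical axis) in classical monocytes (filled points) and in other cells with Csf1r (open points) of the PBS (blue) and DT (red) libraries, 1 library each. Ly6a2, Ifitm6 and Mgst1 lie to the right in classical monocytes of both libraries, and C1qc, Retnlg and S100a9 far to the left.

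Between DT and PBS classical monocytes, 223 of 5586 genes with at least 50 UMIs over both libraries (3.99%) were higher in DT, by a ratio of at least 1.5 with an interval without 1, and 206 (3.69%) were lower. The genes of the rule were left out. The median log2 ratio of all 5586 genes was -0.02, and the plot of ratio against level shows them. Below, "higher" and "lower" without a further word refer to this criterion, log2 ratios are DT over PBS of summed UMIs with 5 CPM added, and plain ratios are without the addition. A list's median is taken over its members with at least 50 UMIs.

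**Figure D2:**
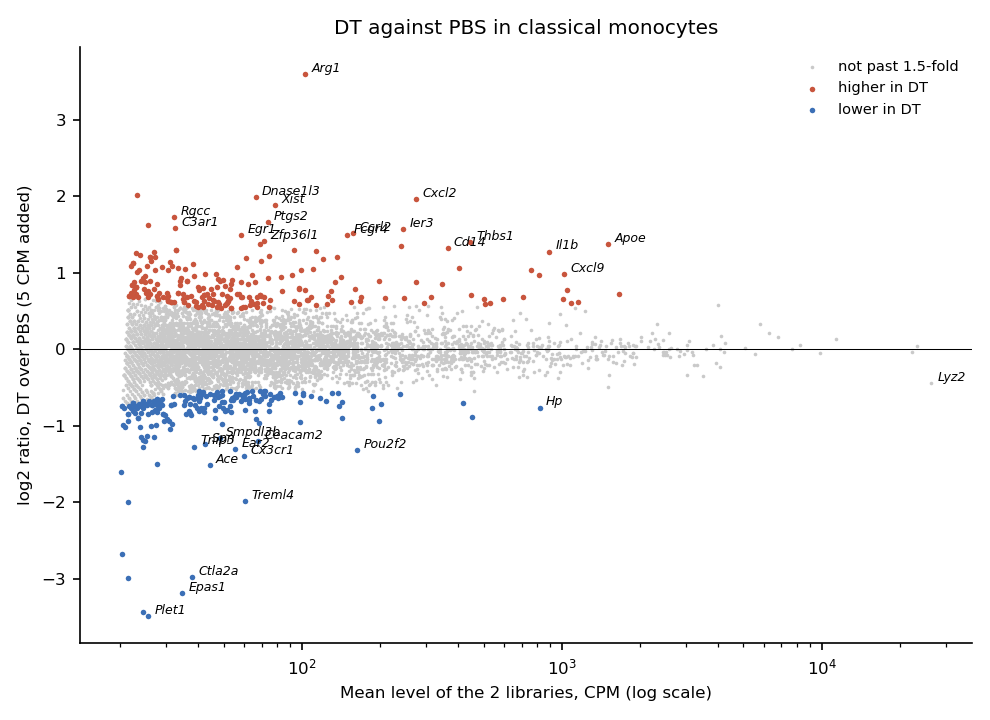
Log2 ratio of DT over PBS (5 CPM added, vertical axis) against the mean CPM of the 2 libraries (log scale, horizontal axis) for each gene measured in classical monocytes, red where higher in DT, blue where lower and grey otherwise. Arg1 lies highest at 3.60, Cxcl2, Ptgs2 and Ier3 lie at 1.97, 1.66 and 1.57, and Treml4 lies at -1.98.

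Inflammatory genes were among the highest in DT classical monocytes. Cxcl2, a chemokine that draws neutrophils through CXCR2, gave 142 UMIs in 25 PBS cells (108 CPM) and 472 UMIs in 38 DT cells (441 CPM), a ratio of 4.06 (3.36 to 4.94). Il1b, the cytokine interleukin-1 beta, gave 681 UMIs in PBS (520 CPM) and 1363 UMIs in DT (1272 CPM), a ratio of 2.45 (2.23 to 2.69). Ptgs2, the inducible cyclooxygenase that starts prostaglandin synthesis, was at 32.8 and 115 CPM (ratio 3.50, 2.45 to 5.07). Ier3, an early-response survival gene, was at 121 and 370 CPM (3.05, 2.53 to 3.69), and Ccrl2, a decoy-type chemoattractant receptor, at 78.6 and 235 CPM (2.99, 2.37 to 3.80). Few cells carried much of this RNA: the 3 highest cells gave 60.6% of the Cxcl2 UMIs in PBS and 48.7% in DT, and 28.2% and 23.6% of the Il1b UMIs. The other cells with Csf1r had ratios above 1 as well, at 1.84 for Cxcl2, 1.38 for Il1b, 1.56 for Ptgs2, 2.165 for Ier3 and 1.56 for Ccrl2. Their Il1b level was higher than that of classical monocytes, at 3204 and 4420 CPM.

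Of the 26 measured genes of the NF-kB and cytokine list, 8 were higher (background 3.99%) and 3 were lower (background 3.69%), with a median of 0.17. Those higher held the cytokines Il1b, Tnf (log2 ratio 1.30) and Osm (0.88), with Ptgs2. They also held Nfkbia (0.60), Nfkbiz (1.04) and Nfkbid, of the family named for inhibitors of NF-kB, not all of which act only as inhibitors. Tnfaip3 (0.90), which encodes a ubiquitin-editing enzyme that restrains NF-kB, was higher too. Those lower were Rela (-0.58) and Relb (-0.73), which encode NF-kB subunits, and Tnip3 (-1.27), a partner of the Tnfaip3 protein, which stood at 2.61 in female-called cells, where PBS had 0 UMIs. The list's median was below 0 in male-called cells (-0.33), after thinning (-0.20), from means of the deposited log2 values (-0.27), with at least 2 of Vcan, F13a1 and Fn1 required (-0.07) and with no gene required to be undetected (-0.18).

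Promoters are shown for 3 of these genes because they carry the kappaB motif (GGG, any 2 bases, then TTTCC), a form of the DNA word that NF-kB binds. The search covered both strands of 300 bases, from 250 before to 50 after the start in RefSeq (GRCm38.p6). Of the 8 genes with an entry among 11 looked up (the 8 above, Cxcl2, Ier3 and Arg1), 3 had a match, and 535 of all 32851 promoters (1.63%) had one. That share is per promoter, and Nfkbid and Tnfaip3 have more than 1 promoter, so the counts are not alike and were not compared. Il1b, Tnf, Nfkbid, Ptgs2 and Ier3 had no match to this form within the 300 bases, which says nothing of other forms or other stretches. The last 120 bases before the start follow, on the strand of the gene, with the matches in capitals. They lie at chr5:90903779-90903898 (plus strand) for Cxcl2, chr12:55492648-55492767 (minus strand) for Nfkbia and chr10:19015411-19015530 (minus strand) for Tnfaip3.
Cxcl2: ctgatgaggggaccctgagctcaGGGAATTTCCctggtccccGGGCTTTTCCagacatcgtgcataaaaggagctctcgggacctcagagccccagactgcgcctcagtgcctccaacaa
Nfkbia: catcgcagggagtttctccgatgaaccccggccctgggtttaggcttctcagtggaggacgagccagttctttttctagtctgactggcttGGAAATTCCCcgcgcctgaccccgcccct
Tnfaip3: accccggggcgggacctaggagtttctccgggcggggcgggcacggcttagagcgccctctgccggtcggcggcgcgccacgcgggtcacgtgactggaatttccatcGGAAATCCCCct
Cxcl2 had 2 matches, beginning 97 and 78 bases before the start, Nfkbia 1 at 29 bases and Tnfaip3 1 at 12 bases. A match is a description of the letters and not a measured binding site.

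The inflammatory difference was not alike in male-called and female-called cells, as the plot of single cells shows, and the gap between those sets was not tested. Il1b was at 619 CPM in male-called and 55.7 CPM in female-called PBS cells, and at 454 and 1493 CPM in those of DT. Among male-called cells the DT level was thus 0.734 times that of PBS (0.577 to 0.925), and it was 26.8 times as high among female-called cells (13.5 to 62.4), where PBS had only 22 cells. Cxcl2 was at 97.8 and 105 CPM in male-called PBS and DT cells, and at 20.9 and 670 CPM in female-called ones. Ptgs2 kept its direction in male-called cells, at 25.3 and 89.8 CPM, and so did Ier3, at 145 and 260 CPM. Nfkbia (-0.08) and Tnfaip3 (-0.12) lay near 0 in male-called cells on the log2 scale.

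Free RNA was checked in T cells, which should lack these transcripts. After thinning to 2000 UMIs, Il1b was detected in 28.5% of PBS and 37.1% of DT classical monocytes, against 8.23% and 11.8% of T cells. Cxcl2 was detected in 5.59% and 12.6% of classical monocytes, close to the 4.88% and 9.48% of T cells, so its share of cells is read as background while its level rests on a few strong cells. At least 3 of Il1b, Cxcl2, Ptgs2, Ier3 and Ccrl2 were seen together in 4.47% (1.95 to 8.62) of the thinned PBS and 13.2% (8.44 to 19.3) of the thinned DT cells, against 2.30% and 4.27% of T cells. All of these genes had been found higher in DT in the same cells, so the shares are a description and no separate support. The median depth before thinning was 4620 and 4626 UMIs in T cells.

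**Figure D3:**
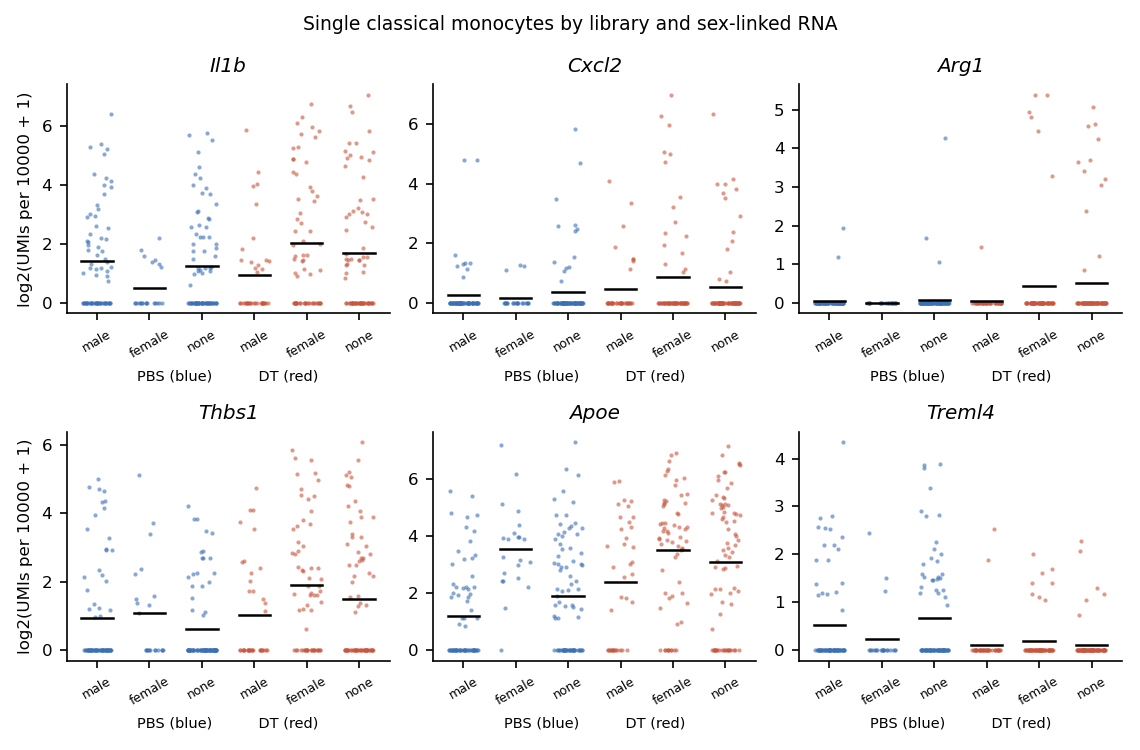
Each point is 1 classical monocyte, as log2(UMIs per 10000 + 1) on the vertical axis, for 6 genes, with cells of the PBS (blue) and DT (red) libraries split on the horizontal axis by sex-linked RNA into male-called, female-called and neither, and black bars at the mean. Of the 19 DT cells with Arg1, 6 are female-called and 1 is male-called, and Apoe is low in male-called PBS cells, at 422 CPM in sum.

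Genes tied to suppressive and matrix-forming myeloid cells were higher as well, led by Arg1. Arg1, an enzyme that breaks down the arginine T cells need, lies on chromosome 10 at 24915221 to 24927484 (GRCm38). It gave 15 UMIs in 5 PBS cells (11.5 CPM) and 209 UMIs in 19 DT cells (195 CPM), a ratio of 17.0 (10.1 to 31.0). The share of cells with Arg1 was 2.78% (0.908 to 6.36) and 10.7% (6.55 to 16.2), and 1.68% and 9.58% after thinning, with 0.0957% and 0.417% of T cells as background. Thbs1, the matrix glycoprotein thrombospondin 1, was at 242 and 648 CPM (ratio 2.68, 2.34 to 3.07) and was detected in 55 PBS and 92 DT cells. Ecm1, an extracellular matrix protein, was at 42.8 and 106 CPM. Vegfa, the vessel growth factor, rested on 8 UMIs in PBS and 43 in DT. Cd274, which encodes the checkpoint ligand PD-L1, was at 51.9 and 135 CPM (ratio 2.61, 1.94 to 3.53), seen in 27 and 52 cells. These differences were not particular to classical monocytes. In the other cells with Csf1r the ratio was 3.29 for Arg1, 3.25 (3.05 to 3.47) for Thbs1, 1.92 for Vegfa, 1.87 for Ecm1 and 1.215 for Cd274. The gap between the cell sets was not tested.

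Of 19 measured genes of the suppressive and matrix list, 6 were higher (background 3.99%) and 0 lower (background 3.69%), with a median of 0.42. The 6 were Arg1, Thbs1, Vegfa, Ecm1, Cd274 and Ptgs2. In male-called cells Arg1 gave 6.75 CPM (PBS) and 4.99 CPM (DT), which are only 4 UMIs and 1 UMI. The interval of that ratio, 0.0150 to 7.47, leaves its direction unknown. Thbs1 gave 275 and 260 CPM in male-called cells and so was not higher there. In female-called cells Arg1 gave 0 and 220 CPM and Thbs1 gave 411 and 814 CPM. Cd274 kept its direction in both, at log2 ratios of 1.36 and 2.50. Tgm2, a transglutaminase that cross-links matrix, was at 134 and 347 CPM in all cells but at 150 and 94.8 CPM in male-called ones.

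The Arg1-positive DT cells carried other RNA in unequal amounts. In these 19 cells Thbs1 was at 2176 CPM, against 426 CPM in the other DT classical monocytes. Cd14, the co-receptor for bacterial lipopolysaccharide, was at 2176 against 282 CPM. Il1b was at 4182 against 850 CPM and Apoe, the lipid carrier of macrophages, at 4403 against 1867 CPM. Fn1 was at 2308 against 1260 CPM, while Ly6c2 was at 723 against 814 CPM. They were thus not cells of low Ly6c2, and their median depth was 7120 UMIs. Of the 19, 6 were female-called and 1 male-called. The 5 PBS cells with Arg1 went the other way for Thbs1 (48.9 against 248 CPM) and Apoe (710 against 841 CPM). They went the same way for Il1b (1420 against 491 CPM), Cd14 (636.4 against 191.5 CPM), Fn1 (1273 against 1106 CPM) and Ly6c2 (636.4 against 1177 CPM). These cells were picked by their Arg1, and the values describe them only.

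Genes that mark the passage from monocyte to macrophage were higher in DT for a few members and not for the list as a whole. Apoe gave 837 CPM over 102 PBS cells that had it and 2188 CPM over 133 DT cells (2.61-fold, 2.43 to 2.81). Ctsl, a lysosomal cathepsin, was at 63.4 and 162 CPM, and Lgmn, the lysosomal protease legumain, at 136 and 258 CPM. Maf, a transcription factor of macrophages, stood at a log2 ratio of 0.57 (-0.09 in female-called cells). These were the 4 of 20 measured members that were higher (background 3.99%). The 1 lower (background 3.69%) was Cx3cr1, and the median was -0.07. At least 3 of the 4 higher genes were seen together in 2.23% (0.612 to 5.62) of the thinned PBS and 11.4% (6.99 to 17.2) of the thinned DT cells, against 0% and 0.104% of T cells. The 4 were taken because they were higher in these same cells, so the shares are a description and no separate support. Apoe was at 422 CPM in male-called and 1893 CPM in female-called PBS cells, and at 1288 and 2184 CPM in those of DT, so the ratio came to 3.05 among male-called cells and to 1.15 among female-called ones.

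The 10 marker genes of tissue macrophages summed to 1026 CPM (PBS) and 2386 CPM (DT), of which Apoe alone gave 837 and 2188 CPM. The difference in the sum was thus almost all Apoe, and not a rise of the other markers. None of the 10 was at 0, and 12 and 18 cells had at least 3 of them. C1qa, C1qb and Gpnmb were absent by the rule, and C1qc was at 1.53 and 3.73 CPM, against 829 and 917 CPM in the other cells with Csf1r. The part of macrophage RNA in the result was not tested. Dab2, an endocytic adaptor of macrophages, was at 35.9 and 102 CPM. C3ar1, the receptor for complement C3a, was at 13.7 and 51.3 CPM (ratio 3.73, 2.16 to 6.76), in 8 and 31 cells.

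Genes of nonclassical monocytes were lower in DT classical monocytes. Treml4, a surface receptor of patrolling monocytes, gave 130 UMIs in 50 PBS cells (99.2 CPM) and 23 UMIs in 16 DT cells (21.5 CPM), a DT to PBS ratio of 0.216 (0.132 to 0.339). Ace, the angiotensin-converting enzyme, was at 67.9 and 20.5 CPM (0.302, 0.180 to 0.486). Cx3cr1, the receptor for fractalkine, was at 89.3 and 30.8 CPM (0.345, 0.227 to 0.511), and Pou2f2, a transcription factor of nonclassical monocytes, at 236 and 91.5 CPM (0.388, 0.306 to 0.488). Spn, the sialoprotein CD43, was at 61.8 and 23.3 CPM, and Ear2, an eosinophil-type ribonuclease with near-identical family copies, at 80.9 and 29.9 CPM. Pou2f2 was seen in 34.6% of thinned PBS and 19.2% of thinned DT cells, and Cx3cr1 in 15.6% and 3.59%, with T cells at 8.71% and 6.46% for Pou2f2 and 2.77% and 2.29% for Cx3cr1.

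Of 16 measured members of the nonclassical list, 10 were lower (background 3.69%) and 2, Cd274 and Nr4a1, higher (background 3.99%), and the median was -0.63. Besides those named, Adgre4, an adhesion receptor (-0.69, and 0.36 in female-called cells), Itgal, an integrin subunit (-0.58), Ceacam1 and Pglyrp1 were lower. At least 3 of Ace, Treml4, Adgre4, Spn and Eno3 were seen in 3.35% (1.24 to 7.15) of the thinned PBS and 0 of 167 thinned DT cells, which allows up to 2.19%. Ace, Treml4, Adgre4 and Spn had been found lower in DT in the same cells, so the shares are a description and no separate support. Without the classical monocytes that had at least 2 of these 5 genes, Treml4 stood at -0.76, Ear2 at -0.42, Cx3cr1 at -0.68, Spn at 0.02 and Itgal at 0.15, while Pou2f2 (-1.22) and Ace (-1.14) stayed below -1. Treml4, Spn and Ace are among the genes that picked the cells left out, which were 43 in PBS and 18 in DT. Their ratios were thus moved by the choice itself and describe the remaining cells only. In male-called cells Treml4 was at 103 and 24.9 CPM and in female-called cells at 34.8 and 23.2 CPM, Pou2f2 stood at -0.66 and -1.61, and Spn at -1.02 and 0.17. The direction in the other cells with Csf1r was the same, at -1.69 for Treml4, -1.46 for Ace and -1.36 for Pou2f2. Those sets differed in make-up: 299 of 1257 PBS and 109 of 1279 DT cells had at least 2 of the 5 genes and no C1qa. Within these cells Treml4 was at 408.5 and 199.2 CPM, Ace at 331.6 and 259.6 CPM and Pou2f2 at 557.3 and 318.5 CPM. The part of cell make-up in the ratios was not tested.

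**Figure D4:**
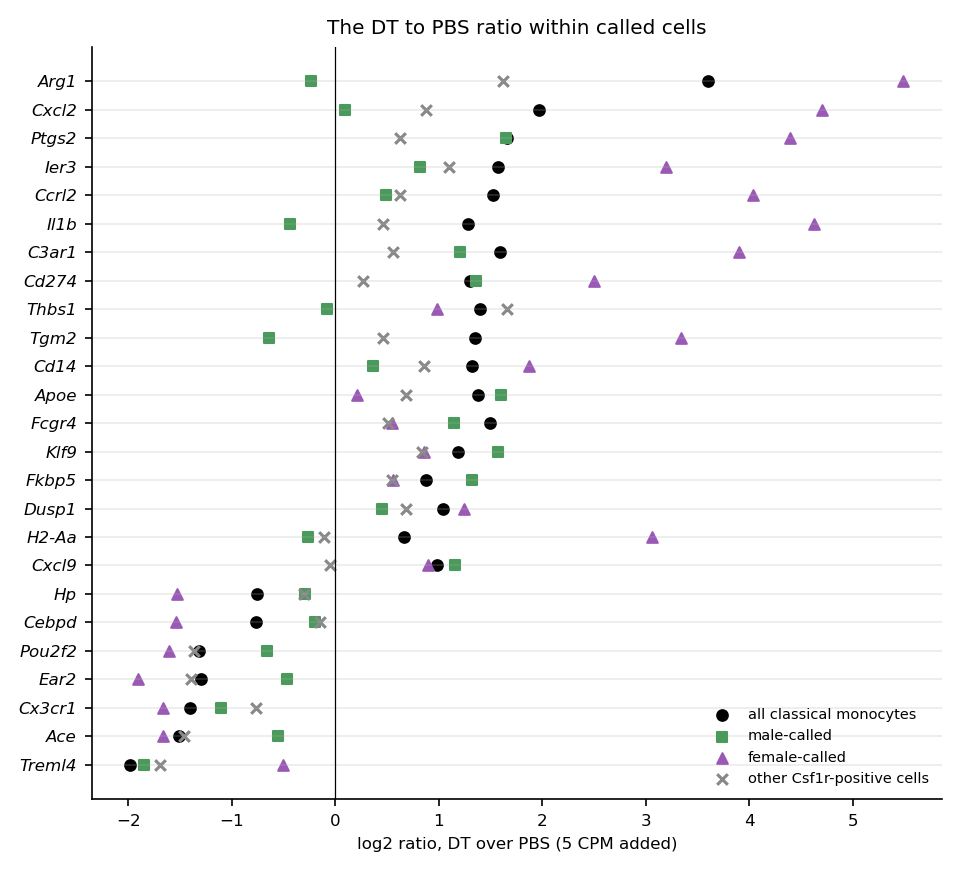
Log2 ratio of DT over PBS (5 CPM added, horizontal axis) for 25 genes (vertical axis) in all classical monocytes (black circles), in male-called (green squares) and female-called cells (purple triangles), and in other cells with Csf1r (grey crosses). Il1b, Tgm2, Arg1, H2-Aa and Thbs1 lie below 0 in male-called and above 0 in female-called cells, but Arg1 rests on 4 PBS UMIs and 1 DT UMI in male-called cells. Pou2f2, Ear2, Cx3cr1, Ace and Treml4 lie below 0 in each set. Arg1, Ptgs2 and C3ar1 had 0 UMIs in female-called PBS cells, so that their purple points depend on the added 5 CPM.

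The lowest named genes of all rested on a few PBS cells. Plet1, a membrane protein of alveolar macrophages and epithelium, gave 67 UMIs in 2 PBS cells and 0 in DT, at least 18.3-fold lower against a floor of 3 UMIs over the library. Epas1, a hypoxia factor strong in endothelium, was at 66.4 and 2.80 CPM, with 93.1% of its PBS UMIs in 3 cells. Ctla2a, also of endothelium, was at 71.0 and 4.67 CPM, with 89.2% in 3 cells. The 10 endothelial markers summed to 315 CPM (PBS) and 18.7 CPM (DT), and 92.2% of the PBS sum lay in 3 cells. Ceacam2, an adhesion molecule whose reads may be shared with Ceacam1, was at 96.2 and 39.2 CPM over 57 and 34 cells, and Smpdl3b, a lipid phosphodiesterase, at a log2 ratio of -1.16 over 46 and 24 cells.

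Early-response genes and genes that glucocorticoids induce were higher in many members. Of 27 measured immediate early and heat shock genes, 10 were higher (background 3.99%), with a median of 0.37. The chaperone gene Dnajb1 was the 1 lower (background 3.69%). Egr1, a zinc finger transcription factor, was at 28.2 and 88.7 CPM (ratio 3.14, 2.13 to 4.72), Junb, a subunit of AP-1, at 907 and 1396 CPM, and Atf3, a stress-induced factor, at 233 and 358 CPM. Dusp1, a phosphatase that turns off MAP kinases, was at 499 and 1028 CPM (2.06, 1.87 to 2.27). Zfp36l1, which speeds decay of cytokine messages, was at 36.7 and 106 CPM. In male-called cells Egr1 was at 37.1 and 39.9 CPM.

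Of 14 measured glucocorticoid-induced genes, 7 were higher (background 3.99%) and 1 lower (background 3.69%), with a median of 0.68. Klf9, a transcription factor that glucocorticoids switch on directly, was at 35.1 and 86.8 CPM (ratio 2.47, 1.72 to 3.60) and was seen in 33 PBS and 70 DT cells. Fkbp5, a co-chaperone of the glucocorticoid receptor, was at 93.1 and 175 CPM, and Per1, a clock gene, at 32.8 and 66.3 CPM. Their log2 ratios were above 0 among male-called cells (1.57, 1.32 and 0.78) and female-called cells (0.86, 0.56 and 0.60). The ratio's interval lay above 1 for Klf9 and Fkbp5 in male-called cells. It included 1 for Per1 there and for each gene in female-called cells. The other cells with Csf1r had ratios above 1 as well, at 1.91 for Klf9, 1.49 for Fkbp5 and 2.31 for Per1. Thinned T cells showed Klf9 in 2.20% (PBS) and 4.90% (DT), Fkbp5 in 12.15% and 15.62%, and Per1 in 2.49% and 8.65%. Ddit4, an inhibitor of mTOR signalling, Il1r2, a decoy receptor for interleukin-1, and Cxcr4, the receptor for CXCL12, stood at 1.21, 0.80 and 0.80, with Il1r2 at -0.75 in male-called cells. The lower member was Cebpd, a C/EBP transcription factor, at 237 and 137 CPM. The list's median stayed between 0.42 and 0.78 over all the settings tried, male-called and female-called cells included.

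Chemokines were higher in 5 of 13 measured members (background 3.99%) and lower in 1 (background 3.69%), with a median of 0.50 (male-called cells 0.09, female-called cells 2.03). Besides Cxcl2 these were Ccl6 (549 and 1080 CPM) and Ccl9 (460 and 730 CPM), chemokines of myeloid cells, Ccl5 (71.8 and 169 CPM), which draws T cells, and Cxcl9 (686 and 1362 CPM), a ligand of CXCR3. Cxcl9 came from 37 PBS and 38 DT cells and stood above 0 among male-called (1.16) and among female-called ones (0.90). Ccl5 rested on few cells, with 64.9% and 63.5% of its UMIs in 3 cells, and its log2 ratio was 2.46 among male-called cells but -1.84 among female-called ones. The lower chemokine was Ccl17, at 37.4 and 5.60 CPM, with 93.9% of its PBS UMIs in 3 cells.

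Genes that interferon-gamma induces were higher in 7 of 23 (background 3.99%) and lower in 0 (background 3.69%), with a median of 0.22. Fcgr4, an activating receptor for IgG, was at 75.6 and 223 CPM (ratio 2.95, 2.32 to 3.77), seen in 51 and 70 cells. Gbp2 and Gbp4, guanylate-binding proteins, stood at 0.61 and 0.88. The list's median was -0.11 in male-called cells and -0.02 without the cells that had 2 of the 5 nonclassical genes. Of 30 measured genes of type I interferon, 2 were higher, Rsad2 (0.65) and Oasl1 (0.66), and 0 lower, which is near the background. In male-called cells Rsad2 stood at -3.99 and Oasl1 at -0.43. Fc receptors and innate sensors were higher in 4 of 25 (background 3.99%), among them Fcgr2b, the inhibitory IgG receptor (389 and 618 CPM), and Cd14 (205 and 522 CPM).

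MHC class II was higher for 3 of 12 measured presentation genes (background 3.99%). These are the alpha and beta chains H2-Aa (778 and 1236 CPM), H2-Ab1 (857 and 1309 CPM) and H2-Eb1 (544 and 877 CPM). All 3 were seen together in 13.4% (8.78 to 19.3) of the thinned PBS and 21.0% (15.0 to 27.9) of the thinned DT cells, against 5.45% and 3.65% of T cells. The 3 genes are those found higher in the same cells, so the shares only describe them. Among male-called cells the CPM of each was below that of PBS, with H2-Aa at 939 and 783 CPM, and in female-called cells H2-Aa was at 174 and 1486 CPM. On the glycolysis and hypoxia list 5 of 19 members were higher (background 3.99%), with a median of 0.25 that was -0.36 in male-called cells. The higher ones included Mif, a cytokine (70.2 and 151 CPM, but -0.41 in male-called cells on the log2 scale). Hk3, a hexokinase (49.6 and 98.9 CPM), Tpi1 (0.62) and Hif1a (0.79) were also higher. Of 31 measured nuclear genes of the respiratory chain and 9 of the mitochondrial genome, 0 were higher or lower, at medians of -0.02 and 0.08.

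Genes of the classical monocyte state outside the rule had a median of 0.00, with members past the criterion both ways. Of 29 measured, 4 were higher (background 3.99%), which were Cd14, Ccl6, Ccl9 and Thbs1. The 2 lower (background 3.69%) were Hp and Ly6a2. Hp, the haemoglobin-binding protein haptoglobin, was at 1038 and 609 CPM (ratio 0.587, 0.534 to 0.645), and was detected in 74.9% of thinned PBS and 56.3% of DT cells. Ly6a2 was at 262 and 135 CPM. Lyz2 was at 30448 and 22427 CPM and Plac8 at 4372 and 3734 CPM, and neither passed the fold of 1.5. Within called cells these genes moved apart: the DT to PBS ratio of Lyz2 was 1.13 among male-called and 0.484 among female-called cells. For Chil3 it was 1.63 and 0.618, for Hp 0.817 and 0.345 and for Ly6a2 0.789 and 0.240. Genes of the neutrophil-type monocyte state were split, 2 higher (S100a8 and Il1r2) and 2 lower (Hp and Lrg1) of 12, against backgrounds of 3.99% and 3.69%. S100a8, at 94.7 and 188 CPM, had 75.6% of its DT UMIs in 3 cells and stood at -1.47 in female-called cells. Neutrophil markers summed to 446 and 628 CPM, with Ly6g at 0 in PBS, and their part was not tested.

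Genes of the dendritic cell-type monocyte state were higher in 0 of 10 measured and lower in 3, which were Cd209a, a lectin (36.7 and 12.1 CPM, from 9 and 5 cells), Tnip3 and Cbfa2t3. The background over all genes was 3.99% higher and 3.69% lower for this list and the following ones. The list's median was -0.23, and 2.16 in female-called cells, where Cd209a stood at 2.50 and Tnip3 at 2.61. S100 and annexin genes were even but for S100a8 and Anxa3, which were higher, and Anxa1, a mediator that dampens inflammation, which was lower at 517 and 315 CPM in 151 and 110 cells. Among 22 trafficking receptors and adhesion genes 3 were higher (C3ar1, Cxcr4 and C5ar1) and 3 lower (Cx3cr1, Fpr2 and Itgal). Among 19 lineage transcription factors 3 were higher and 3 lower, the latter Cebpd, Id3 (-0.84) and Nfe2l2 (-0.57), the regulator of the oxidative stress response. Targets of p53 were higher in 3 of 14, and the 4 measured cell cycle genes were neither higher nor lower. The plot of lists gives these counts side by side.

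**Figure D5:**
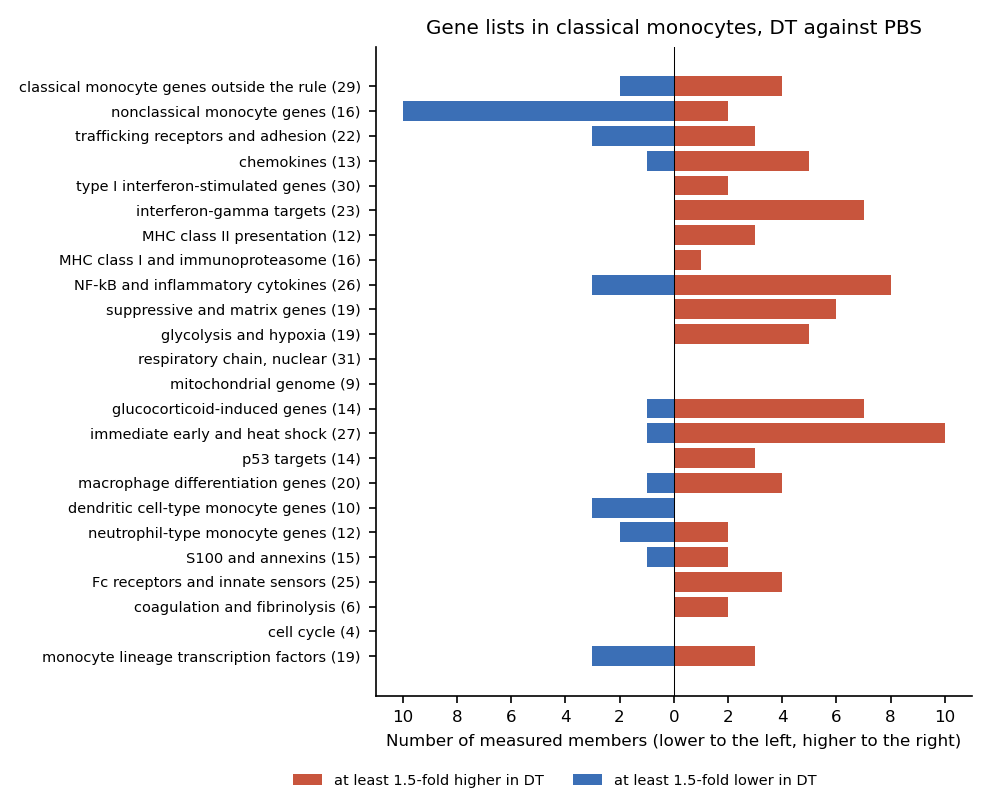
Number of genes at least 1.5-fold higher (red, right) or lower (blue, left) in DT than in PBS classical monocytes, with an interval without 1, for each of 24 gene lists, with the number of measured genes in brackets. Immediate early genes have the most higher members, 10 of 27, and nonclassical monocyte genes the most lower ones, 10 of 16.

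Of the remaining genes chosen by rank, Xist, at 30.5 and 127 CPM, follows the sex-linked calls given above. Dnase1l3, a secreted DNase, was at 23.7 and 109 CPM, but 3 cells gave 80.7% and 69.2% of its UMIs. Rgcc, a cell cycle regulator, was at 12.2 and 52.3 CPM over 13 and 17 cells. Scgb1a1, the club cell product itself, gave 43 UMIs over 32 PBS cells (32.8 CPM) and 2 UMIs in DT (1.87 CPM), a DT to PBS ratio of 0.0569 (0.00667 to 0.218). After thinning it was seen in 5.59% of PBS classical monocytes, against 7.66% of PBS and 0% of DT T cells, so the PBS share was at the level of free RNA.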

How the data were processed

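Each group is 1 library made with 10x Genomics 3′ chemistry from DAPI-negative, CD45-positive cells, per the labels' protocols. Partek, Seurat, STAR and the mm10 build are listed in the submitters' processing notes. Versions and settings were not given in the sources used here. Deposited by the authors were log2(CPM + 1) values per cell and gene, judged by the values themselves. The plan assumed counts. Values were therefore taken off the log scale and expressed in units of each cell's lowest value, and 100.0% of those above 0 were then whole UMIs within 1%. The libraries held 31089434 (PBS) and 27896059 (DT) UMIs over 16184 genes.

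All deposited cells entered. Scrublet (scanpy 1.11.5, expected rate 6%) marked 2 PBS and 0 DT cells and so did not work; no cell was removed. UMIs were summed over the selected cells and scaled to CPM (Python 3.11.15, numpy 2.4.6, scipy 1.17.1). Ratios have exact conditional binomial 95% intervals and shares Clopper-Pearson intervals. Genes with at least 50 UMIs were measured, and higher or lower means a ratio of at least 1.5 with an interval without 1. The cells, 38 gene lists (24 of monocyte biology, 14 of other cells) and tests were chosen with earlier results of these data known. Named genes were the 12 highest and 12 lowest log2 ratios with at least 50 CPM in one library, leaving out ribosomal, mitochondrial, immunoglobulin and T cell receptor genes. Also named were members of the lists, and the 10 highest and 10 lowest against other cells with Csf1r. Ly6c1 and other single genes outside these were named after their values were seen. T cells (Cd3e and Cd3d, no Csf1r) served as background for free RNA. Promoter sequences came from RefSeq, gene coordinates from GENCODE on GRCm38. Some genes are not reported here and were left out of the lists. The steps were tested on simulated UMI sums, drawn around the pooled profile of the selected cells with counting error only. Unevenness between cells and spread between mice were not simulated, so that test says nothing of how many calls they could produce. Alternatives varied the cell filter, depth, rule, scaling, cell weight, added CPM, gene minimum, doublet scores and sex calls. Chosen after seeing the data were those without cells of 2 nonclassical or 3 endothelial genes and with at least 3 UMIs of Ly6c2.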

Additional observations from a re-analysis of the deposited data

Results flagged for a closer look

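In 3 genes the DT to PBS ratio was at least 1.5-fold one way in classical monocytes and at least 1.5-fold the other way in the other cells with Csf1r, each with a counting interval on its own side of 1. Others, such as Dnase1l3 (1.99 and -0.27), H2-Aa (0.66 and -0.11), Cxcl9 (0.98 and -0.05) and Anxa1 (-0.70 and 0.14), lay on opposite sides of 0 but under that fold in the other cells. The difference between the cell sets was not tested. Ccl5 stood at 1.18 on the log2 scale in classical monocytes (94 and 181 UMIs in PBS and DT) and at -0.64 in the other cells (6865 and 3910 UMIs). Among male-called classical monocytes it stood at 2.46 and among female-called ones at -1.84, and 1 DT cell held 73 of the UMIs. Mgp, a matrix protein that binds calcium, stood at 1.23 (16 and 38 UMIs) and at -1.53 (1833 and 531 UMIs), with 92.1% of the DT UMIs in 3 cells. Plekhg3, a regulator of cell shape, stood at -0.99 (38 UMIs in 32 PBS cells, 13 UMIs in 12 DT cells) and at 0.49 (185 and 251 UMIs). Plekhg3 was spread over many cells, at no more than 3 UMIs in any, and was below 0 in male-called (-0.75) and female-called cells (-0.99).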

How the results depend on the processing

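No paired analysis was possible because each group is 1 library with no replicate. The share of classical monocytes among all cells had a DT to PBS ratio of 1.40 in male-called cells, 0.539 in female-called cells and 0.685 with at least 3 UMIs of Ly6c2, and among cells with Csf1r of 1.52, 0.423 and 0.742. The counts of 223 higher and 206 lower genes were 88 and 69 after thinning, 58 and 24 with at least 200 UMIs per gene, and 86 and 129 in male-called cells, all over fewer genes, and 117 genes were lower in female-called cells.

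Among the 84 genes followed through the alternatives, some called ones changed sign (log2 ratios). In male-called cells these were Arg1 (-0.23), Smpdl3b (0.33), Il1b (-0.44), Nfkbia (-0.08), Tnfaip3 (-0.12), Mif (-0.41), Hif1a (-0.24), Gbp2 (-0.15), H2-Aa (-0.26), H2-Ab1 (-0.32), H2-Eb1 (-0.61), Rsad2 (-3.99), Oasl1 (-0.43), Thbs1 (-0.08), Tgm2 (-0.64), Tpi1 (-0.36), Hk3 (-0.05), Il1r2 (-0.75) and Gbp4 (-0.11). In female-called cells they were Ctla2a (0.95), Tnip3 (2.61), Spn (0.17), Ccl5 (-1.84), Maf (-0.09), Adgre4 (0.36), S100a8 (-1.47), Cd209a (2.50), Id3 (0.28) and Ccl17 (1.51). As differences of mean deposited log2 values they were Nfkbia (-0.57), Cd14 (-0.06), S100a8 (-0.49) and Rsad2 (-0.25). With no gene required to be undetected they were Ctla2a (0.06), Ccl5 (-0.12), H2-Ab1 (-0.01) and S100a8 (-0.03). Others were Spn (0.02) and Itgal (0.15) without cells with 2 nonclassical genes, Oasl1 (-0.52) after thinning and Rsad2 (-0.36) with at least 3 UMIs of Ly6c2. Spn was itself among the genes by which those cells were left out. Xist, which the call sets to 0 UMIs in male-called cells, and Epas1, with 0 UMIs in female-called cells of both libraries, came to 0.00 there and say nothing of direction. The cause of the other changes was not tested. Both scaling alternatives, both other added values and both other gene minimums reversed none of the 84 genes. Many more results moved without a change of sign. These were 56 of the 84 genes with means of the deposited log2 values and 45 with no gene required to be undetected. They were 24 after thinning, 21 with at least 2 of Vcan, F13a1 and Fn1, and 10 with 20 CPM added. In male-called and female-called cells 42 and 49 moved. The sign changes are thus not all of the results that depend on the setting. Few cells limit the called subsets, with 22 female-called PBS and 38 male-called DT cells. Some changes of sign rest on very few UMIs and leave the direction unknown. Examples are Arg1 in male-called cells (4 UMIs in PBS, 1 in DT), and Ctla2a (0 and 2) and Ccl17 (0 and 4) in female-called cells.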
